A study of Mus musculus with 6 samples.

Results

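The S100 calcium-binding proteins were examined in mouse taste cells through 10 of their genes: S100a3, S100a4, S100a6, S100a7a, S100a8, S100a9, S100a10, S100a11, S100a14 and S100a16. They were taken by gene symbol from a deposited table of 23361 genes, which lists all 10 of them. RNA was sequenced from taste cells that were isolated from the circumvallate and foliate (CV/Fol) papillae of the tongue of C57BL/6 mice. The groups were 3 libraries at 2 months of age, each a pool of 4 mice, and 3 libraries at 6 months, each a pool of 3 mice. The labels name no mutation, transgene or drug in either group, collagenase and dispase were used to free the epithelium in both, the RNA of both was isolated at the same time, and the sex of the mice is not given in the sources used here. The sample labels name 2 and 6 months, whereas the design text of the series names 3 months for the younger group in one place.

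S100 proteins are small proteins that pair into dimers and bind calcium through EF-hand loops. On binding calcium most of them expose a surface that grips a target protein such as an annexin. Most S100 genes stand in a cluster that forms the flanks of the epidermal differentiation complex, the stretch of the genome that also holds the cornified envelope genes of stratified epithelium. Several of them, S100a8 and S100a9 above all, are released by keratinocytes and leukocytes during stress and act there on microbes and on immune cells.

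Each gene has 1 value per age, in FPKM (read fragments scaled by transcript length and by the mapped reads of the library), which the authors computed over the 3 libraries of that age. Values of single libraries were not analysed here. No SD can therefore be given, no test was run, and whether a difference between the ages is larger than the spread between pools cannot be said. Differences are log2(FPKM + 1) of the older minus that of the younger mice. Genes that averaged 1 FPKM or more over the 2 ages are called detected, and those that averaged 30 FPKM or more are called abundant, a limit set after the values had been seen. A gene was counted as lower or higher when it passed 1.5-fold on that scale, a log2 difference of 0.58. Library depth is unknown.

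The 10 S100 genes covered a wide range of levels in the taste cell preparation, which also held keratinocyte RNA (below). Their order was nearly the same at both ages. All 10 were detected. S100a11 was the most abundant, with 2876 FPKM in the younger and 2609 FPKM in the older mice, and ranked 27th of the 23361 genes by mean FPKM. S100a14, S100a6, S100a16 and S100a10 also averaged 500 FPKM or more, a level that 198 genes reached in all. At the other end, S100a3 had 3.85 and 3.40 FPKM and ranked 10170th. Since FPKM is scaled by transcript length, these levels can be set beside each other, although at 486 to 1280 bases the transcripts are short.

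**Figure D1:**
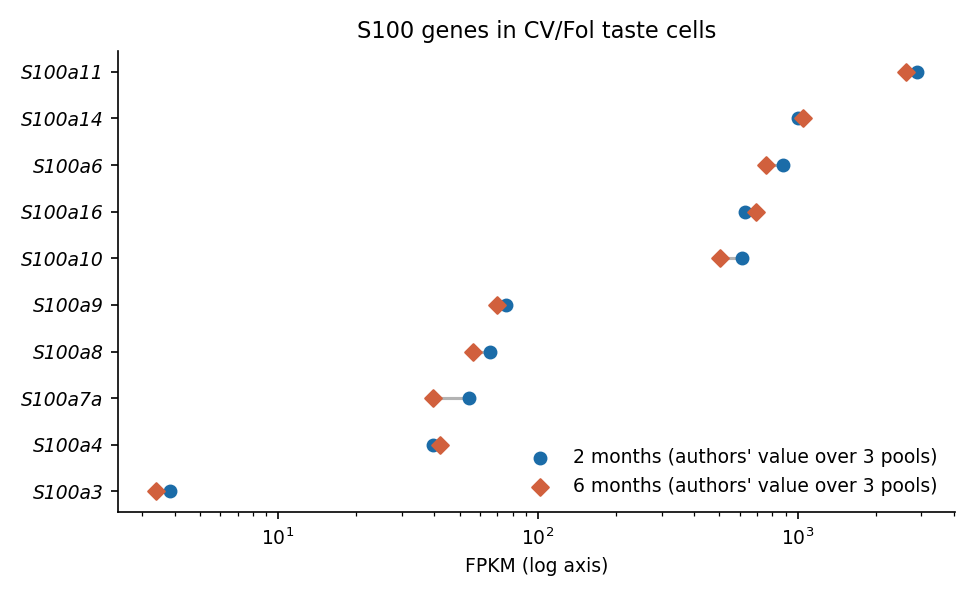
FPKM of the 10 S100 genes on a log axis, with 1 point per age, each the value the authors computed over 3 pools. For every gene the points of the 2 ages lie close together compared with the distance between genes, which reaches from 3.40 to 2876 FPKM.

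Together the 10 genes held 0.896% of the summed FPKM of all genes at 2 months and 0.872% at 6 months. S100a11 alone made up 46.1% of their sum at 2 months and 44.9% at 6 months. The level of S100a11 was 746 times that of S100a3 in the younger mice and 768 times in the older mice. For comparison, the median detected gene had 11.8 and 11.7 FPKM. Only S100a3 stood under that median.

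None of the 10 genes was lower or higher by at least 1.5-fold at 6 months. Of the 12652 detected genes, 1.72% were lower and 1.05% were higher by that much. Since 9 of the 10 S100 genes were abundant, the 3035 abundant genes are the closer background, and 4.58% of those passed 1.5-fold in either direction. A count of 0 among 10 is thus near what the background gives and sets the family apart from no other genes.

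Smaller differences ran in both directions. At 6 months 7 of the 10 genes had a lower value and 3 had a higher one. A lower value was seen for 53.7% of all detected genes and for 66.3% of the abundant ones, so that the count among the S100 genes is close to that of genes of like abundance. That share depends on the scaling: with the ages set to the same sum without small RNA genes it was 37.1%, and 7 of the 10 S100 genes still had the lower value. The median log2 difference of the 10 genes was -0.14, beside -0.01 for all detected genes and -0.05 for the abundant ones. The S100 genes ranged from -0.45 for S100a7a to 0.14 for S100a16.

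**Figure D2:**
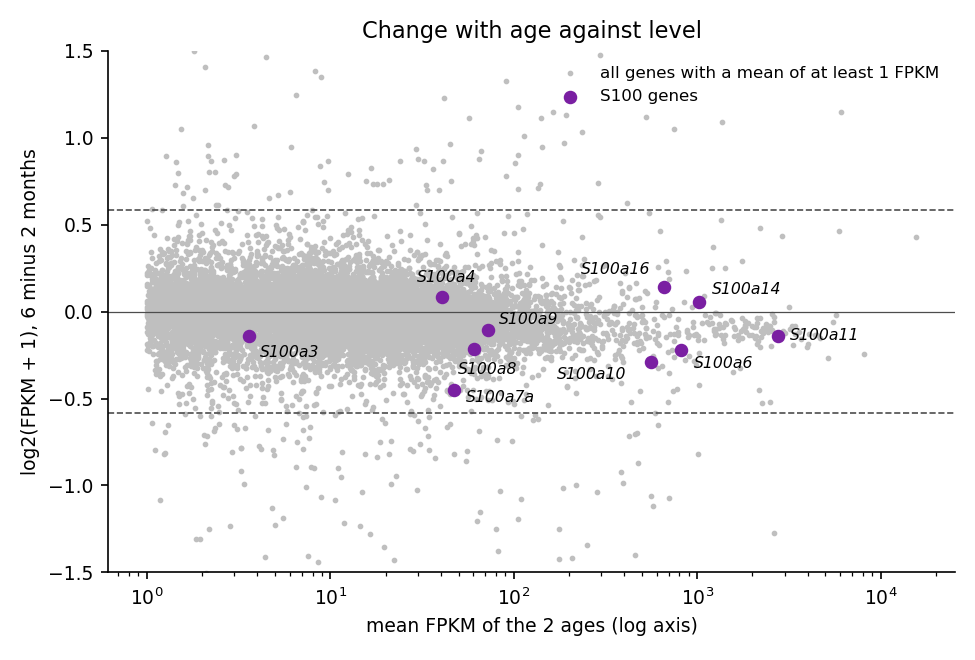
Log2(FPKM + 1) at 6 months minus 2 months against the mean FPKM of both ages on a log axis, for all detected genes (grey) and the 10 S100 genes (purple). Dashed lines mark 1.5-fold, all 10 S100 genes lie between them, and 62 genes beyond 1.5 on the vertical scale are not drawn.

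S100a8 and S100a9, the calgranulins, form the heterodimer calprotectin, which withholds zinc and manganese from microbes. The level of S100a8 was 65.4 FPKM in the younger and 56.1 FPKM in the older mice, a log2 difference of -0.22. S100a9 had 75.2 and 69.8 FPKM, a log2 difference of -0.11. S100a9 was the higher of the pair at both ages, and the ratio of S100a8 to S100a9 was 0.870 in the younger and 0.805 in the older cells. The genes are neighbours, 22.6 kb apart, and are transcribed from opposite strands.

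Neutrophils hold much calprotectin, so the neutrophil markers were read beside this pair. Of the 12 listed markers, 11 are in the table and 5 were detected. The receptor genes Cxcr2 and Csf3r and the integrin gene Itgam, which mature neutrophils express, were detected, Cxcr2 with 4.77 and 4.47 FPKM, Csf3r with 3.40 and 3.60 FPKM and Itgam with 4.32 and 4.38 FPKM. Granule genes that are transcribed mainly during maturation in the marrow were near 0, Mpo with 0.00558 and 0.0276 FPKM and Elane listed at 0 in both ages. Retnlg, another neutrophil marker of the list, was not detected, with 1.18 and 0.639 FPKM. Some of the neutrophil markers were thus present at low levels at both ages, and the part of neutrophils in the S100a8 and S100a9 values was not tested. The summed level of the list was 2175 FPKM in the younger and 2061 FPKM in the older mice, of which nearly all was Ltf (lactoferrin), a gene that glands express as well, with 2144 and 2016 FPKM. Lcn2, an iron-scavenging protein of neutrophils and epithelium, was the 1 gene of the list past 1.5-fold, 16.8 FPKM in the younger and 31.4 FPKM in the older mice. By at least 1.5-fold, 1.05% of all detected genes were higher.

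S100a7a belongs to the psoriasin group, antimicrobial proteins of keratinocytes, and showed the largest difference between the ages among the 10 genes. Its level was 54.6 FPKM in the younger and 39.7 FPKM in the older mice, a ratio of 0.727 and a log2 difference of -0.45. Of all detected genes, 314 (2.48%) had a difference as low or lower. Among the abundant genes the 5th percentile was -0.38. At 2 months S100a7a stood above S100a4, whereas at 6 months the order of these neighbours in level was turned. Whether they differ beyond the spread between pools cannot be said.

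S100a10 and S100a11 are known for their annexin partners. S100a10, which has lost the ability to bind calcium and pairs with annexin A2 at the plasma membrane, stood at 612 FPKM in the younger and 501 FPKM in the older mice, a log2 difference of -0.29. This was the next largest difference of the 10 genes after that of S100a7a, and 5.30% of all detected genes had one as low. Among the abundant genes, the closer background, the 5th percentile was lower than that of S100a10, at -0.38. Anxa2 had 927 and 945 FPKM, so that the ratio of S100a10 to Anxa2 was 0.661 at 2 months and 0.530 at 6 months. S100a11 was at -0.14 on the log2 scale. Its partner Anxa1, an annexin that is abundant in stratified epithelium, had 4269 and 3703 FPKM, and the ratio of S100a11 to Anxa1 was 0.674 and 0.705.

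S100a6 (calcyclin), which is associated with proliferating cells and binds the protein encoded by Cacybp, stood at 877 FPKM in the younger and 754 FPKM in the older mice, a log2 difference of -0.22. Cacybp had 43.3 and 42.4 FPKM. S100a4, a binder of non-muscle myosin that is common in fibroblasts and macrophages, had 39.6 and 42.0 FPKM, a log2 difference of 0.08. Myh9, the heavy chain to which S100a4 binds, had 57.8 and 66.4 FPKM. The fibroblast collagen genes Col1a1, Col1a2 and Col3a1 were between 0.121 and 0.144 FPKM in the younger and between 0.0518 and 0.0658 FPKM in the older mice, whereas Dcn, another fibroblast gene, was at 42.0 and 27.3 FPKM. The pan-leukocyte gene Ptprc had 1.54 and 1.65 FPKM, and Lyz2, a lysozyme gene of macrophages, 293 and 254 FPKM. The part of these cells in the S100a4 value was not tested.

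S100a14 and S100a16, epithelial members that lie 8.42 kb apart, both had a higher value at 6 months. S100a14 went from 1006 to 1046 FPKM, a log2 difference of 0.06. S100a16 went from 626 to 692 FPKM, a log2 difference of 0.14. S100a16 and S100a10 were nearly level at 2 months and stood further apart at 6 months. S100a3, a cysteine-rich protein best known from the hair cuticle, had a log2 difference of -0.14 at the low level given above.

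Other S100 genes of the mouse showed differences of similar size. Of 8 listed, all are in the table, S100a7l2 under an older symbol, and 4 were detected. S100a1, which is best known from muscle, was at 59.0 FPKM in the younger and 47.3 FPKM in the older mice. S100g (calbindin-D9k, a calcium carrier of gut and other epithelia) had 70.0 and 77.2 FPKM. S100a13 was at 27.6 and 24.3 FPKM and S100a2 at 2.00 and 1.73 FPKM. S100b, the glial member, had 0.0796 and 0.147 FPKM, and S100a5 and S100a7l2 were listed at 0 in both ages. Of these genes 0 passed 1.5-fold, and the median log2 difference of the 4 was -0.16. A count of 0 is near the background, in which 1.72% of all detected genes were lower and 1.05% higher by that much.

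The 10 genes all lie on chromosome 3 of GRCm38 (mm10), in 2 groups. The larger group of 8, from S100a14 to S100a9, stands within the first 185 kb of an interval that begins with S100a1 at position 90511034. S100a11 and S100a10 stand at its far end, which is the end of S100a10 at position 93564643, and 2.82 Mb separate S100a9 from S100a11. S100a9 is transcribed from the minus strand and the other 9 from the plus strand. Each gene has 3 exons except S100a14, which has 4, and each encodes 89 to 124 residues.

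Between these groups lie the S100-fused genes and the cornified envelope genes. S100-fused proteins carry an S100 domain joined to a long repeat region and are packed into the cornified layer. Of 7 listed, 6 are in the table and 4 were detected, and all 4 were lower by at least 1.5-fold at 6 months. Among all detected genes 1.72% were lower by that much, and the list was chosen with earlier results of these data known. Rptn (repetin) was at 291 FPKM in the younger and 145 FPKM in the older mice. Crnn (cornulin) had 44.3 and 7.05 FPKM, Tchh (trichohyalin) 23.7 and 9.17 FPKM, and Hrnr (hornerin) 6.98 and 2.64 FPKM. Their median log2 difference was -1.21, with Crnn the lowest at -2.49. All 4 lie below the lowest of the 10 S100 genes, S100a7a at -0.45. A difference as low as that or lower was seen for 2.48% of all detected genes.

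Of all detected genes, 1.72% were lower and 1.05% higher by at least 1.5-fold. Among the other 36 detected genes of the interval that GENCODE annotates as protein-coding, 27 were lower and 1 was higher by that much. Their median log2 difference was -1.71. Many of these are Lce genes, near-identical copies between which reads can be split. The interval was drawn after the values had been seen, and its count is given as a description of where the S100 genes stand. The nearest of the detected genes on the inner side, Pglyrp4 next to S100a9 and Tchh next to S100a11, had log2 differences of -0.04 and -1.28.

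**Figure D3:**
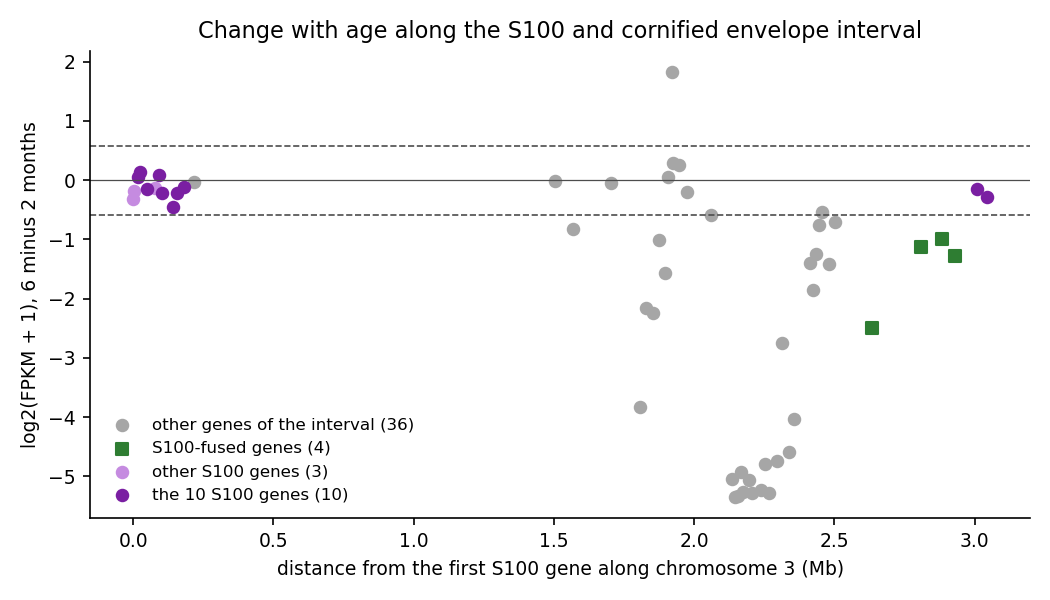
Log2(FPKM + 1) at 6 months minus 2 months for detected genes, against the distance of the gene from the start of S100a1 on chromosome 3 in Mb. Dashed lines mark 1.5-fold, the S100 genes at both ends lie between them, and the 4 S100-fused genes (squares) and 27 of the 36 other genes lie under the lower line.

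Marker genes of the cells in the preparation were read beside the S100 values. All 9 taste cell markers were detected, with summed levels of 502 FPKM in the younger and 459 FPKM in the older mice, and 0 of them passed 1.5-fold. The basal keratinocyte genes were more abundant, with a sum of 4617 and 4589 FPKM over 5 genes, and again 0 passed. Of 7 genes of cornifying keratinocytes, whose sum was 7230 and 5974 FPKM, 3 were lower by at least 1.5-fold. These were Krt10, Lor and Ivl, of which Ivl stood just past the limit at -0.59. Among all detected genes 1.72% were lower and 1.05% higher by at least 1.5-fold. The counts of 0 for the taste cell and basal lists are near that background. Under either scaling of the 6 month values 2 of the 7 were lower by that much. Keratinocyte RNA was thus present at both ages beside that of taste cells, and its part in the S100 values was not tested. In pooled RNA, fewer cells of a type and less RNA per cell cannot be told apart.

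Genes for partners and receptors of S100 proteins showed no difference of 1.5-fold. Of 11 genes for protein partners, 0 passed 1.5-fold, 5 were lower and 6 higher, and their median log2 difference was 0.03. Ahnak, a giant scaffold bound by the complex of S100a10 and annexin A2, had the largest difference, from 84.4 to 116 FPKM. Of 6 genes for receptors of released S100 proteins, 4 were detected and 0 passed 1.5-fold. With 1.72% of all detected genes lower and 1.05% higher by that much, these counts of 0 are near the background. Ager, which encodes RAGE, had 1.22 and 1.31 FPKM, and Tlr4, a receptor of the S100a8 and S100a9 proteins, had 4.18 and 3.43 FPKM. Bsg, the most abundant of the receptor genes, had 204 and 182 FPKM.

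Of 23 other EF-hand genes, 18 were detected. Beside 1.72% lower and 1.05% higher among all detected genes, 0 of these 18 passed 1.5-fold, a count near the background. Their median log2 difference was -0.09, and 17 of the 18 had a lower value at 6 months, beside 53.7% of the detected and 66.3% of the abundant genes. The sign depends on the scaling, since the median of the list was 0.0019 with the ages set to the same sum without small RNA genes. The median of all detected genes moved as well, from -0.01 to 0.07, and that of the list stayed under it. The calmodulin-like genes Calml3 and Calm4, both of stratified epithelium, were as abundant as the upper S100 genes. Calml3 had 1098 and 1305 FPKM, the 1 higher value of the list, and Calm4 had 1053 and 864 FPKM. Capns1, a calpain subunit, had 268 and 252 FPKM, and Calm2, a calmodulin gene, had 211 and 187 FPKM.

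**Figure D4:**
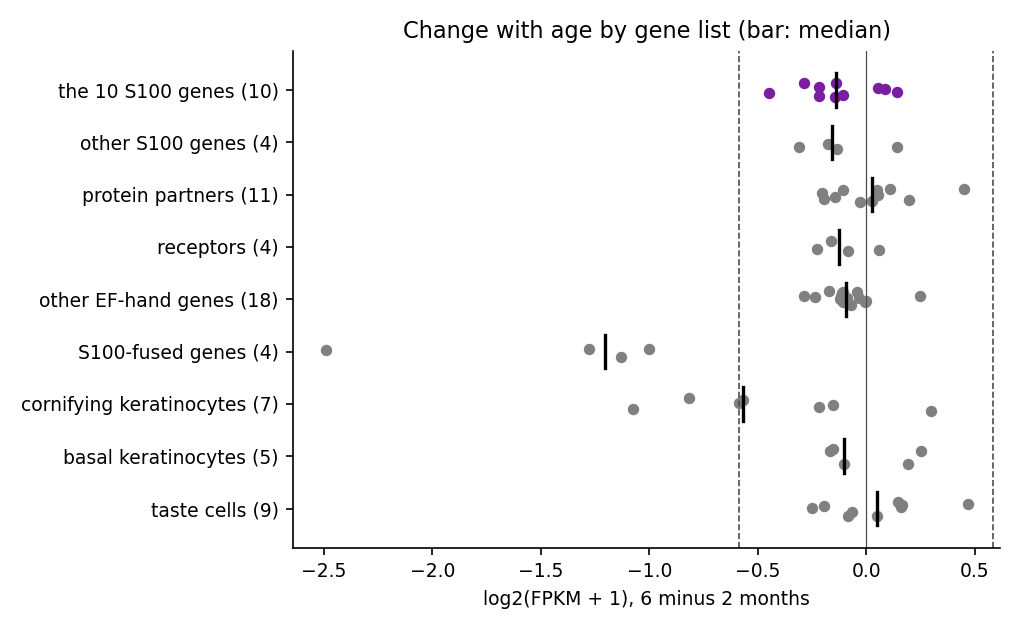
Log2(FPKM + 1) at 6 months minus 2 months for each detected gene in 9 lists, with the number of genes in brackets and the median as a bar. Dashed lines mark 1.5-fold, and genes beyond the lower line occur in the lists of S100-fused genes (4 of 4) and of cornifying keratinocytes (3 of 7).

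Reads of some S100 genes can be shared with other transcripts. For a RefSeq-linked transcript of each gene, the stretches of 50 bases that also occur in transcripts of other genes in the GENCODE annotation of GRCm38 were counted. S100a6, S100a8, S100a9, S100a10, S100a14 and S100a16 shared 0 such stretches. S100a11 shared 41.1% of its stretches with processed pseudogenes, all of them with Gm12854 and some also with Gm7665 and Gm29240, and none of the 3 is in the table. S100a4 shared 56.3% and S100a3 14.6% with Gm42674, a gene model that overlaps both and is not in the table either. S100a7a shared 6.90% with transcripts of 240 genes, of which 167 are in the table. The S100a3 gene model also overlaps S100a2. The values of S100a3, S100a4, S100a7a and S100a11 are uncertain to that extent, as how shared reads were assigned is not given in the sources used here.

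Promoter sequences are shown for the most abundant gene, the gene with the largest difference and 2 more genes, S100a16 and S100a8, chosen because motif letters were found in their windows, since the study concerns AP-1 (Fos and Jun) factors. The RefSeq promoter table of GRCm38.p6 holds 12 windows of 300 bases, 250 before and 50 from the start site on, for 8 of the 10 genes. S100a10 and S100a14 have no window in it. Windows were searched on both strands for the AP-1 letters TGANTCA, the TATA box letters TATAAA and the C/EBP letters TTGCNNAA, and matches stand in capitals, with no overlap between the motifs in the windows printed. The windows are S100a11 at chr3:93520246-93520545, S100a16 (the later of 2 start sites) at chr3:90540896-90541195, S100a7a at chr3:90654052-90654351 and S100a8 at chr3:90668821-90669120, all on the plus strand of chromosome 3 and read 5′ to 3′.
S100a11: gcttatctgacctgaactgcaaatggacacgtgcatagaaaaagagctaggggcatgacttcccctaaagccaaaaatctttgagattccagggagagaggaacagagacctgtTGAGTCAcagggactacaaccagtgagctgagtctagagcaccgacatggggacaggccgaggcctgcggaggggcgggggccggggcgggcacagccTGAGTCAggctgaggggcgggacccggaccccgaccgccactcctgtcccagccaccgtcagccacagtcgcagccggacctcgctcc
S100a16: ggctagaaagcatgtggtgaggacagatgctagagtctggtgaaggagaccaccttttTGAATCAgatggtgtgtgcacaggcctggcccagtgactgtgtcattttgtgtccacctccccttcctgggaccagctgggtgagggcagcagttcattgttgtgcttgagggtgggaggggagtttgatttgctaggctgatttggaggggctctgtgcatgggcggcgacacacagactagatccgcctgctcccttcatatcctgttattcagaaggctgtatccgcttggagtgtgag
S100a7a: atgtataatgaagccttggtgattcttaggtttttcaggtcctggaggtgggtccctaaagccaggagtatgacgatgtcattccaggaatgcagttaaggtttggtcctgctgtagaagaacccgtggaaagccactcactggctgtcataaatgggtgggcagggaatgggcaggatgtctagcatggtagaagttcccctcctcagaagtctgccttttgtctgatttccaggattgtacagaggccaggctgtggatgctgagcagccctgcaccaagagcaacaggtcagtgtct
S100a8: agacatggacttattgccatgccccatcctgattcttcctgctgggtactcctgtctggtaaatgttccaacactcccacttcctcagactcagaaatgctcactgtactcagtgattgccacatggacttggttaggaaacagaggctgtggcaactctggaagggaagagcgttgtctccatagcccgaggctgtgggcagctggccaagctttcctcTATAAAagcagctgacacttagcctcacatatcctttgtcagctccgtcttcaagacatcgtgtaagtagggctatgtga

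The S100a11 window held the AP-1 letters at 2 places, starting 136 and 38 bases before the start site. The window of the later S100a16 start site held them at 1 place, starting 192 bases before it. The window of the earlier S100a16 start site held none of the 3 motifs. Among the S100 windows 2 of 12 held these letters, and 7.81% of all 32851 windows of the table did. S100a11 and S100a16 had log2 differences of -0.14 and 0.14, and S100a7a, with -0.45, held none of the 3 motifs in its window. That window begins at position 90654052, inside the GENCODE gene, which begins at 90654017. The bases before the GENCODE start of S100a7a were not searched. The TATA box letters were found in 4 of the 12 S100 windows, those of S100a3, S100a4, S100a8 and S100a9, beside 13.6% of all windows. In S100a8 and S100a4 they started 30 and 31 bases before the start site, in S100a3 52 bases before it, and in S100a9 at the start site itself. The C/EBP letters were found in the S100a9 window, 236 bases before the start site, and in 10.8% of all windows. A match describes the letters of these windows and no binding site.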

How the data were processed

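RNA of CV/Fol taste cells from mice of 2 and 6 months was sequenced in 3 pooled libraries per age. Per the sources, TopHat2 (2.0.7) aligned reads to the GRCm38/mm10 genome with RefSeq gene models, and the authors obtained FPKM with Cufflinks (2.1.1) and compared the ages with Cuffdiff. The deposited table has 1 FPKM value per gene and age, and its columns were tied to the ages by the letters B and S, which also stand in the sample titles. Its other column holds the authors' own p-values, which were not used.

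Log2 differences were computed with a pseudocount of 1 over genes that averaged 1 FPKM or more, which understates differences of low genes. With pooled values no replicate test could be fitted, so a 1.5-fold difference was counted and set beside all genes. Counting was tested on simulated data. The 10 members and the gene lists were chosen with earlier results of these data known. All members are named. Of the partner, receptor and EF-hand lists, genes past 1.5-fold and up to 4 more by mean FPKM were to be named, with Cacybp, Myh9 and Ahnak added after their values were seen. Marker genes were named after their values were seen. Genes listed at 0 in 1 age were left out of list counts. List symbols were matched to the table directly or by an older symbol in RefSeq (GRCm38.p6). Positions, exons and transcripts are those of GENCODE M21 for GRCm38. Alternatives were a pseudocount of 0.1, scaling of the 6 month values, a fold of 2, no filter and a mean of at least 5 FPKM. Python 3.11.15, numpy 2.4.6, pandas 2.3.3 and matplotlib 3.10.9 were used.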

Additional observations from a re-analysis of the deposited data

How the results depend on the processing

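No paired analysis was possible because single libraries have no values in the table, and for the same reason leaving out each replicate in turn was not run. With a pseudocount of 0.1 and under both scalings, 0 of the S100 genes was lower by at least 1.5-fold. The fold of 2 and the changed filters alter no value of these genes, so they could only give 0 again. A mean of at least 5 FPKM left 9 of the 10 genes. Each of the 10 genes kept the sign of its difference under both scalings, and a pseudocount cannot change a sign. The median log2 difference of the 10 genes was -0.14, -0.16 with a pseudocount of 0.1, -0.10 with the same upper quartile in both ages (6 month values times 1.03) and -0.06 with the same sum after leaving out microRNA and small nucleolar RNA genes (6 month values times 1.07). S100a9 came closest to 0, at -0.01 under the last of these. In the same order, the median of all detected genes was -0.01, -0.01, 0.03 and 0.07. The background is less steady: the share of abundant genes that had a lower value was 66.3%, 53.7% with the same upper quartile and 37.1% with the same sum, while 7 of the 10 S100 genes stayed lower. S100a7a lay between -0.46 and -0.36. The S100-fused genes had a median of -1.21, and of -1.36 with a pseudocount of 0.1. Past 2-fold stood 3 of the 4 S100-fused genes, 1 of the 7 genes of cornifying keratinocytes and 0 of the neutrophil markers. Among all 12652 detected genes, 131 were lower and 71 were higher by at least 2-fold. With no value per library, a shift under 0.1 on the log2 scale was taken as no move.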

Other observations

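A pair of keratin genes of the oral epithelium, which were read as markers beside the S100 genes, have values that cannot be compared between the ages. Krt4 was listed at 7334 FPKM at 2 months and at 0 at 6 months, and Krt6a at 0 at 2 months and at 3391 FPKM at 6 months. Krt13, the usual partner of Krt4, was listed at 0 in both ages. Outside the small RNA genes, Krt4 and Krt6a were the only 2 genes of the table listed at 0 in one age and at 30 FPKM or more in the other. An exact 0 in such a table can be a failed estimate, and whether it is one here was not tested. The 4 oral suprabasal markers therefore allow a comparison of Krt16 alone, with 821 FPKM in the younger and 573 FPKM in the older mice.

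Of 5 Schwann cell markers, 3 were detected and 0 passed 1.5-fold (1 did with a pseudocount of 0.1). The leukocyte list had 5 detected genes, of which 0 passed 1.5-fold, and their median log2 difference was 0.06. Lyz2, at 293 and 254 FPKM, and Cd68, with a log2 difference of -0.44, went down. Csf1r, Aif1 and Ptprc went up, with log2 differences of 0.22, 0.15 and 0.06. The Langerhans cell gene Cd207 had 1.56 and 1.94 FPKM. Of the 2 detected fibroblast markers, Dcn was lower by at least 1.5-fold, with 42.0 and 27.3 FPKM, which neither scaling of the 6 month values kept. Pdgfra had 1.10 and 1.05 FPKM. A value lower by at least 1.5-fold was seen for 1.72% of all detected genes.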
